A study of Caenorhabditis elegans with 2 samples.

Results

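Chromatin immunoprecipitation followed by sequencing of NFYA-2, which is one of the worm's A subunits of the transcription factor NF-Y, was examined in divergent coding gaps, the stretches between the starts of 2 neighbouring protein-coding genes transcribed away from each other. The series holds 2 biological replicates of 1 group of whole young adult Caenorhabditis elegans of strain RW12238, allele st12238[nfya-2::TY1::EGFP::3xFLAG], sampled at 64 hours after a start from synchronised, starved L1 larvae. The tag was inserted at nfya-2 with CRISPR, the immunoprecipitation used an antibody to GFP per the sample descriptions, and the antibody field of the labels reads nfya-2. Chromatin was sonicated to 200 to 800 bp, a length close to that of many of the gaps. All values come from 1 strain and from all tissues together, and no untagged sample was analysed here, so the recovery of a site without the tag was not measured.

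A ranked region was counted as a member when its summit lay inside a gap of at most 2000 bp in which no further coding gene lies (WBcel235, Ensembl release 115). By this rule 1295 of 71547 ranked regions were members (1.81%, 95% Wilson interval 1.71 to 1.91%), and they lay in 997 of the 2494 divergent gaps of the annotation. Wilson intervals throughout cover counting error only. The rule used positions and gene models and no measured signal. Members were set beside 3281 regions in single-gene gaps, which run from the start of a coding gene to the 3′ end of its same-strand neighbour, and beside 885 regions in convergent gaps, which lie between the 3′ ends of 2 coding genes. Both kinds were held to the same length limit. Single-gene gaps were set by strand and length alone, and same-strand neighbours that share a promoter were not set apart. Whether each single-gene gap holds a promoter was therefore not examined.

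NF-Y is a complex of A, B and C subunits in which the A subunit reads the pentamer CCAAT and the B and C subunits form a histone-like dimer on the DNA. In vertebrates it is known from promoters, where CCAAT boxes commonly lie upstream of the transcription start, and many of its targets there are housekeeping genes. A divergent gap serves as the upstream region of both of its genes, so a summit in it cannot be given to either gene from position alone. Many C. elegans transcripts are trans-spliced to a leader, and an annotated start may therefore lie downstream of the position where transcription begins.

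The summit sequences of 10 members that overlapped a peak of the conservative list are shown because they include the members with the highest signal, with and without a CCAAT word. Each is 101 bases of the plus strand (WBcel235, the same sequence as ce11) centred on the summit, 5′ to 3′, and capitals mark CCAAT or its reverse complement ATTGG. The 5 windows with capitals come first. Of the others, drr-2/set-16 had CCAAT 58 bp from its summit, outside the printed window.
Y22D7AL.10/hsp-60, chrIII:1619083-1619183: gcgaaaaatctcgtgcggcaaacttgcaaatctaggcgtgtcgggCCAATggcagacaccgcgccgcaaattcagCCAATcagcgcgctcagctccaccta
ift-43/mdt-26, chrII:5661039-5661139: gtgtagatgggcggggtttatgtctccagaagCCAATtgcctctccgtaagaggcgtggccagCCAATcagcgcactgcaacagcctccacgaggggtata
hsp-3/C15H9.5, chrX:6092129-6092229: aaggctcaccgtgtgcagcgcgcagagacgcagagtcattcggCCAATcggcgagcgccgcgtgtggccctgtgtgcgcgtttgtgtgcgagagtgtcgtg
sec-61.G/F32D8.7, chrV:10897324-10897424: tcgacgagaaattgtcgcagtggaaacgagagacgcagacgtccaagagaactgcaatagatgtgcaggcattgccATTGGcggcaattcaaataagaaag
R107.5/cls-2, chrIII:9054021-9054121: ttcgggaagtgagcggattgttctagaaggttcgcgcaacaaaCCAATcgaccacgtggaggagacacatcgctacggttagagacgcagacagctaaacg
K01G5.10/tasp-1, chrIII:10759202-10759302: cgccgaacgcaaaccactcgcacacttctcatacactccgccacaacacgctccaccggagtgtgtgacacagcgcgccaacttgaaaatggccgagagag
F44E5.4/F44E5.5, chrII:11759387-11759487: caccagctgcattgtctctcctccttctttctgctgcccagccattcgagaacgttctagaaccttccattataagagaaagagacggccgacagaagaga
rpl-20/Y17G9B.5, chrIV:4750048-4750148: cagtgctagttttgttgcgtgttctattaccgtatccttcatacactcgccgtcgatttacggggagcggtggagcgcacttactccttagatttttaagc
cct-8/Y55F3AR.2, chrIV:1094311-1094411: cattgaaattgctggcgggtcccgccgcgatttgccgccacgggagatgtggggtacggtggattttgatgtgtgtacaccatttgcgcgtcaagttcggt
drr-2/set-16, chrIII:13643705-13643805: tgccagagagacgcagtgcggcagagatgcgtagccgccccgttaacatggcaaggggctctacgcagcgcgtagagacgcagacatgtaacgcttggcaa

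The list that the authors named conservative holds 281 peaks drawn from the ranked list, and a ranked region sharing at least 1 bp with one of them is called here. Of the 1295 divergent-gap regions, 29 were called (2.24%, 1.56 to 3.20%), against 36 of 3281 single-gene-gap regions (1.10%, 0.794 to 1.52%) and 0.403% of all ranked regions. The intervals of the divergent and single-gene shares did not overlap. When at least 50% of a region had to be shared, the single-gene share was 1.04% and the divergent share stayed at 2.24%. Convergent gaps, however, had 20 of 885 regions called (2.26%, 1.47 to 3.46%), so the called share was not higher in divergent gaps than between the 3′ ends of genes. A gene for a tRNA, snoRNA or snRNA overlapped 1 of the 29 called divergent-gap regions, 5 of the 36 in single-gene gaps and 5 of the 20 in convergent gaps, and the part of such genes in these shares was not tested.

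Lists thresholded on each replicate alone gave another order. In the replicate 1 list, 18 divergent-gap regions were called (1.39%), against 12 in single-gene gaps (0.366%), 3 in convergent gaps (0.339%) and 0.129% of all regions. In the replicate 2 list, 12 divergent-gap regions were called (0.927%), against 8 in single-gene gaps (0.244%), 6 in convergent gaps (0.678%) and 0.131% of all regions. The divergent share was the highest of the classes in both replicate lists, although its interval overlapped that of convergent gaps in each. In the other series list, here called pooled, the shares were 2.55% in divergent gaps, 1.34% in single-gene gaps, 2.71% in convergent gaps and 0.621% over all regions.

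Counted per gap, 29 of 2494 divergent gaps held a called summit (1.16%, 0.811 to 1.66%), against 34 of 7288 single-gene gaps (0.467%, 0.334 to 0.651%) and 18 of 2161 convergent gaps (0.833%, 0.528 to 1.31%). Over the gaps of all 3 kinds the share was 0.678%. No divergent gap held more than 1 called region. Divergent gaps were longer, with a median of 672 bp against 532 bp in single-gene gaps. Within length classes, called summits were found in 11 of 907 divergent and 13 of 3523 single-gene gaps of up to 500 bp, and in 7 of 811 divergent and 14 of 2018 single-gene gaps of 501 to 1000 bp. The longer classes had 8 of 468 divergent and 7 of 1079 single-gene gaps of up to 1500 bp, and 3 of 308 divergent and 0 of 668 single-gene gaps of up to 2000 bp. The divergent share was the higher one in each of the 4 length classes, on counts of at most 14 gaps.

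**Figure D1:**
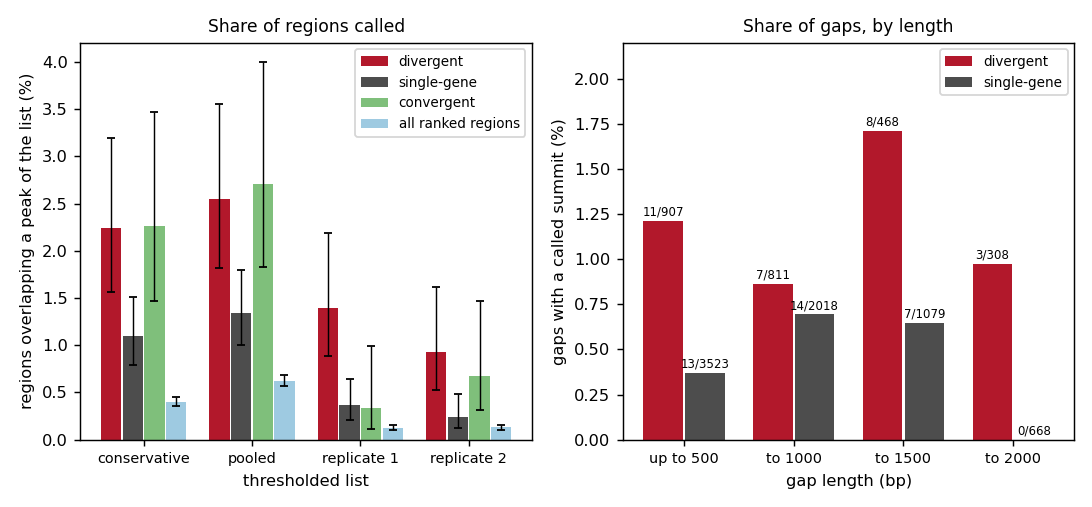
Left, percent of ranked regions that overlap a peak of each thresholded list, for divergent, single-gene and convergent gaps and for all ranked regions, with 95% Wilson intervals. Right, the percent of divergent and single-gene gaps with a called summit by gap length, with the counts above the bars. Divergent gaps stood above single-gene gaps in all 4 lists and all 4 length classes, and in the conservative list their 2.24% stood beside 2.26% in convergent gaps.

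Ranked regions as such were not denser in divergent gaps. There were 660 per Mb of divergent gap, 694 per Mb of single-gene gap and 758 per Mb of convergent gap, against 714 per Mb of the whole genome. Called regions numbered 14.8 per Mb in divergent gaps, 7.61 per Mb in single-gene gaps, 17.1 per Mb in convergent gaps and 2.87 per Mb genome-wide. By chromosome, 6 members were called on I, 6 on II, 7 on III and 8 on IV, against 1 of 329 members on V and 1 of 131 on X. Over all ranked regions the called share was also lowest on X (0.241%) and V (0.267%), and it was 0.440 to 0.616% on the other chromosomes.

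The signal is the authors' own value per region and was used to rank regions within a list. Its median was 23.1 in divergent gaps (quartiles 17.3 and 30.6), 22.9 in single-gene gaps (17.1 and 29.3), 23.2 in convergent gaps and 23.0 over all ranked regions. The 90th percentile was 38.8 in divergent gaps, 37.2 in single-gene gaps, 42.1 in convergent gaps and 36.4 over all regions. Most members thus had signals like those of the rest of the list. The 29 called members had a median of 88.9 (range 57.4 to 2245), against 75.5 for called regions of single-gene gaps, 67.4 for those of convergent gaps and 70.6 for all 288 called regions. Of the 29, 21 lay above that last median. Only 2 of the 10 regions with the highest signal in the whole list were called, and both lay in divergent gaps. The conservative list left out 101 ranked regions with an irreproducible discovery rate of at most 0.01. Of these, 1 lay in a single-gene gap, 1 in a convergent gap, 0 in divergent gaps and 99 elsewhere. By that rate alone, 0.534% of all ranked regions passed, against 2.24% in divergent, 1.07% in single-gene and 2.26% in convergent gaps. A region that was not called was thus not always one with a high rate.

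The highest called signal lay between Y22D7AL.10, annotated as the mitochondrial 10 kDa heat shock protein, and hsp-60, the mitochondrial chaperonin, 2 partners of 1 folding machine whose human counterparts are also neighbours in divergent arrangement. Its signal was 2245 in the series list, 995 in the replicate 1 list and 1256 in the replicate 2 list. The region spans chrIII:1618974-1619291, and its summit lay 204 bp from the start of Y22D7AL.10 and 609 bp from that of hsp-60. As the sequence shows, it holds CCAAT in the same orientation at starts 1619128 and 1619158, 30 bp apart, and both match the extended word described further on.

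Between ift-43, an intraflagellar transport gene, and mdt-26, a Mediator subunit gene, the signal was 547 in the series list, 225 in replicate 1 and 332 in replicate 2. The summit lay 92 bp from the start of mdt-26 and 303 bp from that of ift-43 in a gap of 395 bp. This window also has 2 copies of CCAAT on the same strand, 31 bp apart, of which the second is the extended word. Between hsp-3, an endoplasmic reticulum (ER) Hsp70, and C15H9.5, a predicted membrane protein, the signal was 276 in the series list, 96.9 in replicate 1 and 178 in replicate 2. That summit was 55 bp from the start of hsp-3 and 1121 bp from that of C15H9.5. These 3 members stood apart from the rest, whose signals were 140 or lower, and replicate 2 had the higher value in each of the 3.

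The sec-61.G gap followed, with a signal of 140 in the series list, 63.0 in replicate 1 and 76.7 in replicate 2. The gene encodes the gamma subunit of the Sec61 channel, through which proteins enter the ER, and its start was 231 bp from the summit. The gap of oxy-5 and the palmitoyltransferase gene dhhc-11 had 137 in the series list, 72.0 in replicate 1 and 63.3 in replicate 2. In that gap 73.7% of the 31-base words within 100 bp of the summit occur at 2 or more places in the genome, so reads there may not be assigned uniquely. It was the only called member with over 50% of such words, and 24 of the 29 had none.

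Members of rank 6 to 10 had signals of 106 to 124. They lay between K01G5.10 and tasp-1, a threonine aspartase homolog (124), between the neighbouring Hsp70 genes F44E5.4 and F44E5.5 (120), and between the ribosomal protein gene rpl-20 and Y17G9B.5 (119). The other two were the gap of pdi-3, a protein disulfide isomerase of the ER, and the ubiquilin gene ubql-1 (108), and that of cct-8, a subunit of the cytosolic chaperonin CCT, and Y55F3AR.2 (106). F44E5.4 and F44E5.5 are close copies of each other, and 7.02% of the words around their summit were repeated in the genome.

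Members 11 to 15 by signal lay between drr-2, an RNA-binding protein gene, and set-16 (103), between F56G4.6 and wbp-4 (101), between rpl-15 and K11H12.8 (96.2), between lin-9, a component of the DREAM complex, and unc-32, a subunit of the vacuolar proton pump (95.7), and between F01D4.5 and ced-5, which acts in the engulfment of dying cells (88.9). The remaining 14 had signals of 57.4 to 87.1. R107.5/cls-2, next to the microtubule-associated CLASP gene cls-2, had the extended CCAAT word at a signal of only 58.8, with 29.6 in replicate 1 and 38.4 in replicate 2.

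The 2 replicates gave similar orders for the called members. Of the 29, 28 had a region in the ranked lists of both replicates, the exception being npp-3/top-2, which had none in replicate 1. All 29 had an irreproducible discovery rate of at most 0.01, a rate given for both replicates together. Presence in both lists was thus largely set by how called members were selected. Across these 28, Spearman's rho between the replicate signals was 0.72, against 0.26 across 35 called regions of single-gene gaps and 0.27 across all 283 such called regions. These coefficients are descriptions across sites that share their libraries. The single-gene set includes weak regions at tba-2/pbs-2 (signal 3.86) and C32D5.8/lgg-1 (2.47). Each lay beside a stronger called region and was given the same replicate values, so those values count more than once. Replicate 2 was higher in 19 of 28 members, with a median log2 ratio of replicate 2 to replicate 1 of 0.24 (SD 0.38). In the lists thresholded on single replicates, 16 of the 29 were in that of replicate 1, 12 in that of replicate 2, 11 in both and 12 in neither. The same counts were 11, 8, 5 and 22 for the 36 called regions of single-gene gaps, and 79, 77, 46 and 178 for all 288 called regions. Over all 1295 members 389 had a region in both replicate lists, with a Spearman's rho of 0.32, against 21386 of all 71547 ranked regions with a rho of 0.22.

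**Figure D2:**
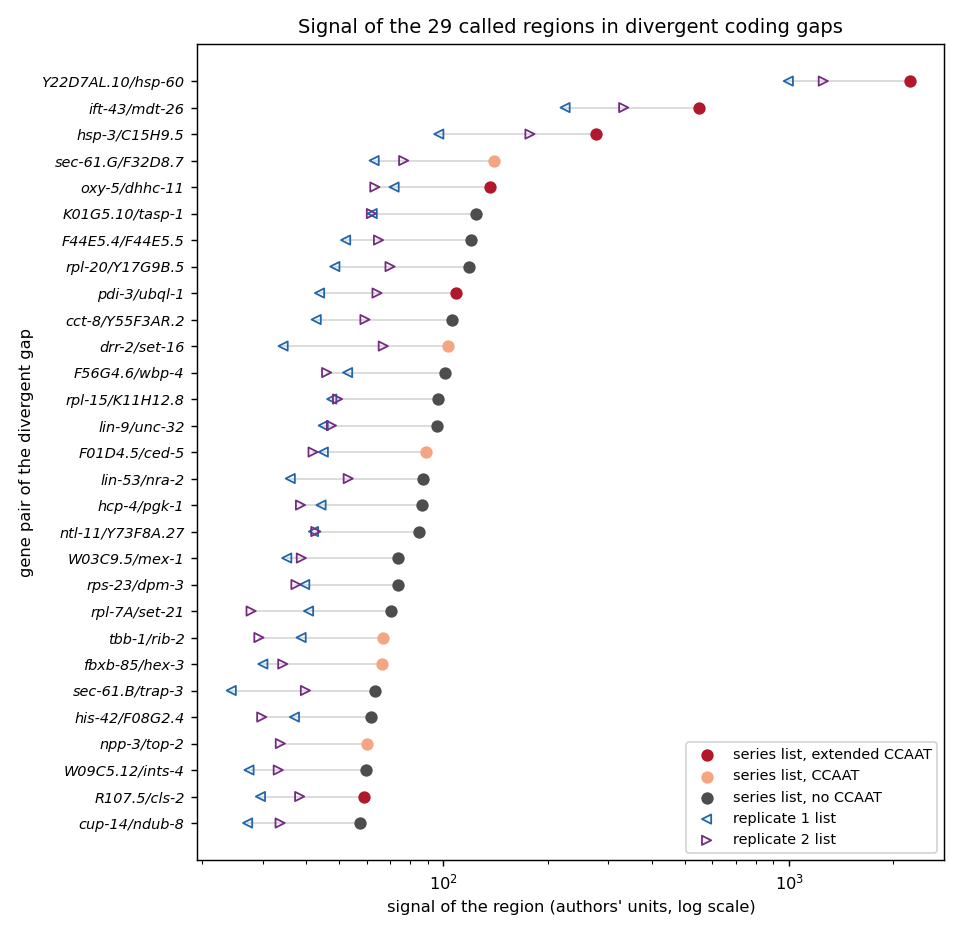
Signal of each of the 29 called divergent-gap regions on a log scale, with the value of the series list (filled, coloured by CCAAT word within 100 bp of the summit) and of the replicate 1 and replicate 2 ranked lists (open triangles). Regions run down the page by signal from 2245 to 57.4, and 4 of the 5 highest carry the extended word.

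Summits of members were spread evenly between the starts. The share in the central part of the gap, from 33.3 to 66.7% of its length, was 32.4% (420 of 1295, 29.9 to 35.03%), against 33.1% in single-gene gaps (31.5 to 34.7%). From the minus-strand gene to the plus-strand gene, 5 equal parts of the gap held 274, 252, 261, 245 and 263 summits. Among the 29 called members, 10 lay in the central part (34.5%, 19.9 to 52.7%), and the 5 equal parts held 6, 6, 8, 6 and 3. Neither set was concentrated midway between the genes.

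Distance to the nearer start had a median of 221 bp (quartiles 98.5 and 387 bp) over all members and 163 bp over the called ones, which ranged from 11 to 836 bp. Of the called members 24 of 29 (82.8%) lay within 300 bp of a start, against 813 of the 1266 that were not called (64.2%). A like shift was seen toward the nearer edge of single-gene gaps, with 31 of 36 called (86.1%) and 65.8% of other regions, and of convergent gaps, which have no start, with 18 of 20 called (90%) and 70.3% of other regions. Counted per region, the gap had a median of 770 bp for called members and 1127 bp for members that were not called. The second value counts gaps with several regions more than once. Counted per gap, the median was 770 bp with a called member and 972 bp with ranked regions of which none was called. Over all divergent gaps it was 672 bp, so gaps with a called member were not short among divergent gaps. In single-gene gaps the nearer edge was 209 bp away in the median, and for called regions 157.5 bp. That edge was the gene start rather than the 3′ end of the neighbour in 12 of the 36 called regions of single-gene gaps and in 1640 of all 3281.

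The longest gap with a called member was that of the histone H3 gene his-42 and F08G2.4, 1905 bp, where the summit was 836 bp from the nearer start and the region overlapped an snRNA gene and another non-coding gene. The summit closest to a start was that of W09C5.12/ints-4, 11 bp from ints-4, an Integrator subunit gene. In the shortest gap, the 254 bp between rpl-7A and set-21, the summit was 23 bp from rpl-7A. Summits close to a gene and far from its partner occurred at the long gaps of lin-9/unc-32, with 105 bp to lin-9 and 1379 bp to unc-32, and of ntl-11/Y73F8A.27, with 108 bp to the CCR4-NOT subunit gene ntl-11 and 1206 bp to Y73F8A.27.

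**Figure D3:**
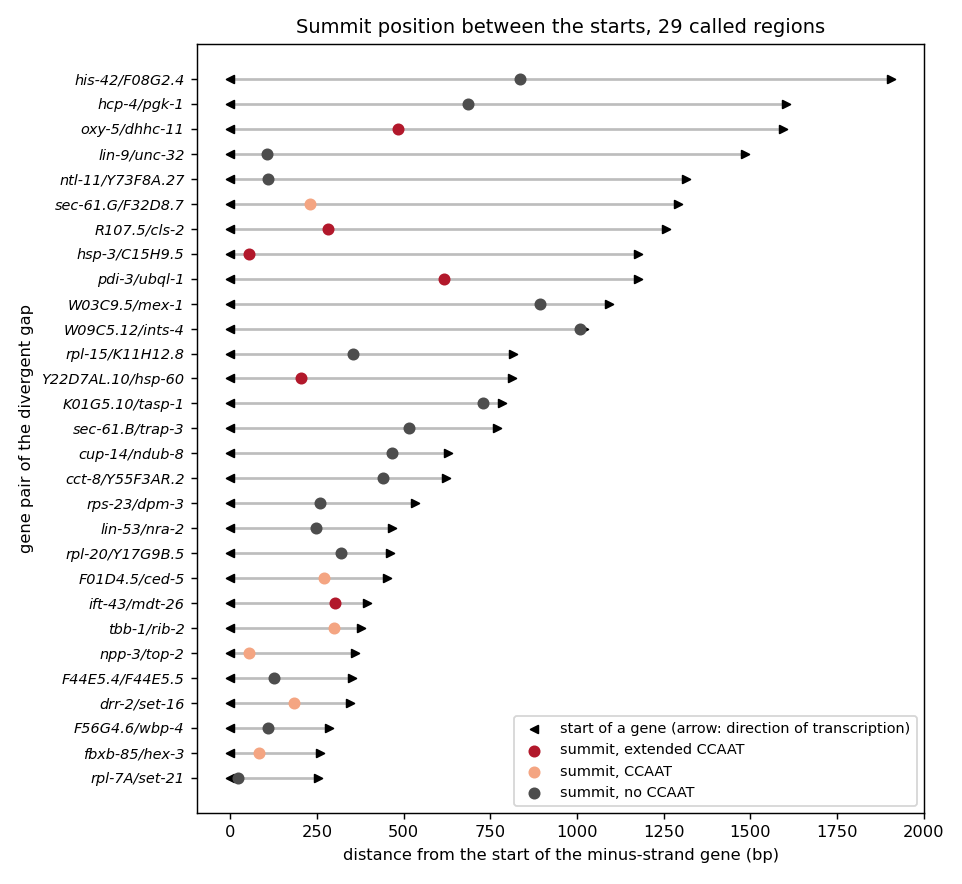
Each line is the gap of 1 called member drawn to scale in bp from the start of the minus-strand gene (left arrow) to that of the plus-strand gene (right arrow), sorted by length, with the summit as a point coloured by CCAAT word. Summits lay along the whole length of the gaps, 10 of 29 of them in the central part from 33.3 to 66.7% of the length.

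Just inside the 2000 bp limit were F21D9.2/F21D9.1 at 1999 bp with a signal of 25.3 and F49F1.12/R07C12.3 at 1998 bp with 22.9 and 22.2. Just outside were fbxa-7/fbxa-73 at 2001 bp with 11.1 and C35B1.5/C35B1.2 at 2003 bp with 24.3. The 416 divergent gaps of 2001 to 3000 bp held 608 regions with a median signal of 22.7, close to that of the members, and 2 were called, fewer than the members' 29 of 1295, at ntl-2/B0286.1 (2030 bp, signal 61.1) and ZK1053.1/ZK1053.2 (2470 bp, signal 57.5).

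CCAAT was sought in either orientation up to 100 bp from the summit. It was found in 418 of 1295 members (32.3%, 29.8 to 34.9%), against 34.4% of regions in single-gene gaps (32.8 to 36.1%), 32.3% in convergent gaps and 37.8% of all ranked regions. The divergent share was thus no higher than in single-gene gaps, and lower than over the whole list. GC content in the same windows was 37.8 ± 7.12% in divergent gaps, 36.3 ± 6.93% in single-gene gaps and 38.8 ± 7.11% over all regions (SD over regions). Where CCAAT was present, its nearest copy lay a median of 37 bp from the summit in divergent gaps and 43 bp in single-gene gaps, and 35.2% of the divergent and 30.3% of the single-gene copies lay within 25 bp.

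The extended word is CCAAT preceded by 2 purines and followed by C or G and then a purine, a common form of the NF-Y consensus. It occurred in 30 members (2.32%, 1.63 to 3.29%), against 58 regions of single-gene gaps (1.77%, 1.37 to 2.28%) and 2.64% of all ranked regions. Among called regions it was found in 6 of 29 in divergent gaps (20.7%, 9.85 to 38.4%), 4 of 36 in single-gene gaps (11.1%, 4.41 to 25.3%) and 32 of all 288 (11.1%, 7.98 to 15.3%). The intervals of the 3 overlapped. The 6 members were Y22D7AL.10/hsp-60, ift-43/mdt-26, hsp-3/C15H9.5, oxy-5/dhhc-11, pdi-3/ubql-1 and R107.5/cls-2, and in 4 of them the word lay within 15 bp of the summit. In pdi-3/ubql-1 it lay 59 bp away and in oxy-5/dhhc-11 81 bp away, where plain CCAAT words were closer.

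CCAAT in any form differed less between called and other members, and the intervals overlapped. It was present in 12 of 29 called members (41.4%, 25.5 to 59.3%) and in 406 of the 1266 that were not called (32.1%, 29.6 to 34.7%), with called single-gene-gap regions at 15 of 36 (41.7%, 27.1 to 57.8%). By word, 6 of 30 members with the extended form were called (20%, 9.51 to 37.3%), against 6 of 388 with plain CCAAT only (1.55%) and 17 of 877 with neither (1.94%). Median signals were 30.6 with the extended word, 23.6 with plain CCAAT and 23.0 without. In single-gene gaps 4 of 58 regions with the extended word were called (6.90%), 11 of 1071 with plain CCAAT only (1.03%) and 21 of 2152 with neither (0.976%). The extended word thus had the highest called share in both kinds of gap, while regions with plain CCAAT only and regions without CCAAT had overlapping intervals.

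By rank, of the 10 members with the highest signal 5 had it and 6 had CCAAT in any form, against 4 and 5 of the top 10 regions in single-gene gaps. Members 11 to 29 included none with the extended word and 4 with CCAAT, and among members 30 to 100 the counts were 2 and 21 of 71. The next 200 members had 6 with the extended word (3%) and 79 with CCAAT (39.5%). Of the 995 members ranked below 300, 1.71% had the extended word and 31.0% had CCAAT. The 24 members with the extended word that were not called had signals of 2.89 to 55.2, the highest of them lgl-1/F56F10.1.

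**Figure D4:**
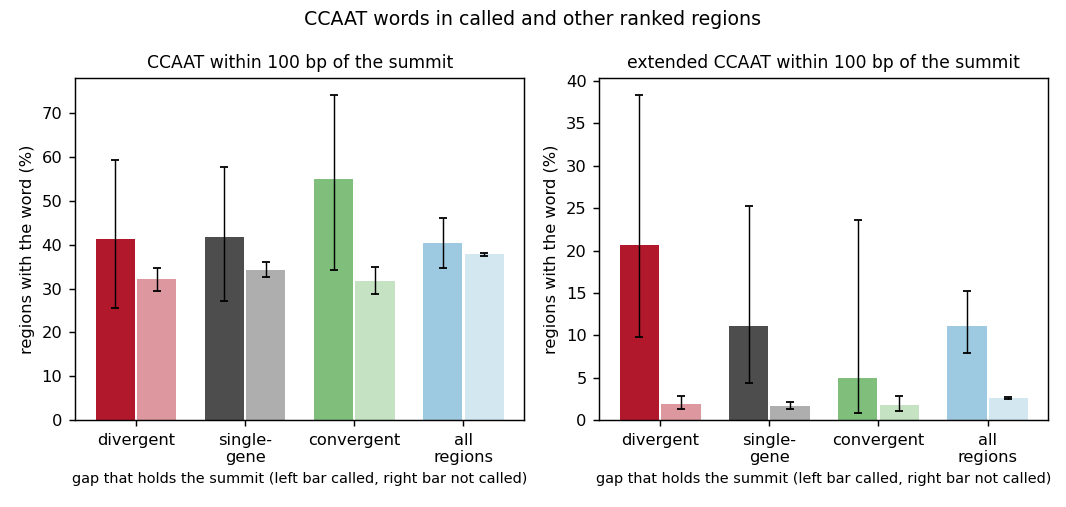
Percent of regions with CCAAT (left panel) and with the extended CCAAT word (right panel) within 100 bp of the summit in called (solid) and other (pale) regions of divergent, single-gene and convergent gaps and of the whole list, with 95% Wilson intervals. In divergent gaps the extended word was in 20.7% of called and 1.90% of other regions, and CCAAT in 41.4% and 32.1%.

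The gaps themselves had the same word content. There were 2.07 CCAAT words per kb of divergent gap and 2.07 per kb of single-gene gap, and extended words numbered 0.0908 per kb of divergent and 0.0903 per kb of single-gene gap. An extended word lay somewhere in 157 divergent gaps, of which 7 held a called summit, beside 29 of all 2494 divergent gaps. In single-gene gaps 8 of 367 did, beside 34 of all 7288. The 29 gaps with a called member had 2.43 CCAAT and 0.335 extended words per kb, and the 34 single-gene gaps with a called region had 2.54 CCAAT and 0.351 extended words per kb. In 231 of 418 members with CCAAT (55.3%, 50.5 to 59.96%) the nearest copy read CCAAT on the coding strand of the nearer gene, an interval just above 50%, and in the called members 4 of 12 did (13.8 to 60.9%).

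Called members were richer in G and C. Their windows had 45.7 ± 6.44% GC, against 37.6 ± 7.03% for members that were not called, and 42.6 ± 7.72% in called regions of single-gene gaps (SD over regions). No member below 35% GC was called, whereas 8 of 950 single-gene-gap regions of 30 to 35% GC were (0.842%). The called share was 2.02% at 35 to 40%, 2.53% at 40 to 45% and 7.58% above 45%, against 0.459%, 2.70% and 2.89% in the same 3 classes of single-gene gaps. The part of GC content in the called share was not tested.

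Gene lists by symbol gave counts of divergent gaps with at least 1 listed gene. Of 12 gaps with a gene of ER folding and translocation 4 held a called region: hsp-3/C15H9.5, sec-61.G/F32D8.7, pdi-3/ubql-1, and sec-61.B/trap-3, where both genes encode parts of the ER translocation machinery. The last had a signal of 63.3 in the series list, 24.3 in replicate 1 and 39.9 in replicate 2. Of 46 gaps with a cytosolic ribosomal protein gene 4 held one: rpl-20/Y17G9B.5 (119), rpl-15/K11H12.8 (96.2), rps-23/dpm-3 (73.8) and rpl-7A/set-21 (70.6). None of these 4 had CCAAT within 100 bp of the summit. These shares, 4 of 12 and 4 of 46, stand beside 29 of all 2494 divergent gaps. In single-gene gaps the ER list had 2 of 8 gaps with a called region and the ribosomal list 1 of 24, beside 34 of all 7288. A high ER share was thus not particular to divergent gaps.

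Of 8 gaps with a CCT chaperonin gene 1 held a called region, at cct-8. Of 2 gaps with a mitochondrial chaperone or protease gene 1 did, at hsp-60, and of 3 with a Mediator gene 1 did, at mdt-26. Gaps of mitochondrial ribosomal proteins (26), the respiratory chain and ATP synthase (22), the proteasome (21), replication and cell cycle genes (19) and splicing factors (19) held none. Over all 2494 divergent gaps the share was 1.16%, so a count of 0 in lists of this size is near that background. In single-gene gaps the respiratory list had 1 of 16 gaps with a called region and splicing factors 1 of 7. The mitochondrial ribosomal, proteasome and replication lists had none there. A complex I subunit gene, ndub-8, lies outside the symbols of the respiratory list, and its gap with cup-14 was called at a signal of 57.4, the lowest of the 29.

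Histone genes of the worm often stand in divergent pairs. In 31 of the 34 divergent gaps with a histone gene both genes were histones, and these 31 gaps had a median length of 259 bp. CCAAT was present in 17 of them and the extended word in 6. Over all 2494 divergent gaps, with a median length of 672 bp, 66.1% had CCAAT and 6.30% the extended word. The share with the extended word was thus higher in the histone pairs. Of the 31, 7 held a ranked region, with signals up to 48.7, and none was called. Among all 907 divergent gaps of up to 500 bp, 186 held a ranked region (20.5%) and 11 a called one (1.21%). The counts of histone pairs with a ranked or a called region were near this background. The single called histone gap was his-42/F08G2.4, with 61.8 in the series list, 37.1 in replicate 1 and 29.8 in replicate 2. Several histone genes are near-identical copies, so the placement of reads in these gaps is uncertain. For the same reason the 6 of 31 gaps with the extended word may not be independent of each other.

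None of the genes for NF-Y subunits, nfya-1, nfya-2, nfyb-1 and nfyc-1, borders a divergent gap under the rule. In the other gaps that border nfya-2 and nfyb-1 there were 2 ranked regions, both between W10D9.3 and nfyb-1, with signals of 29.6 and 16.9, and neither was called.

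**Figure D5:**
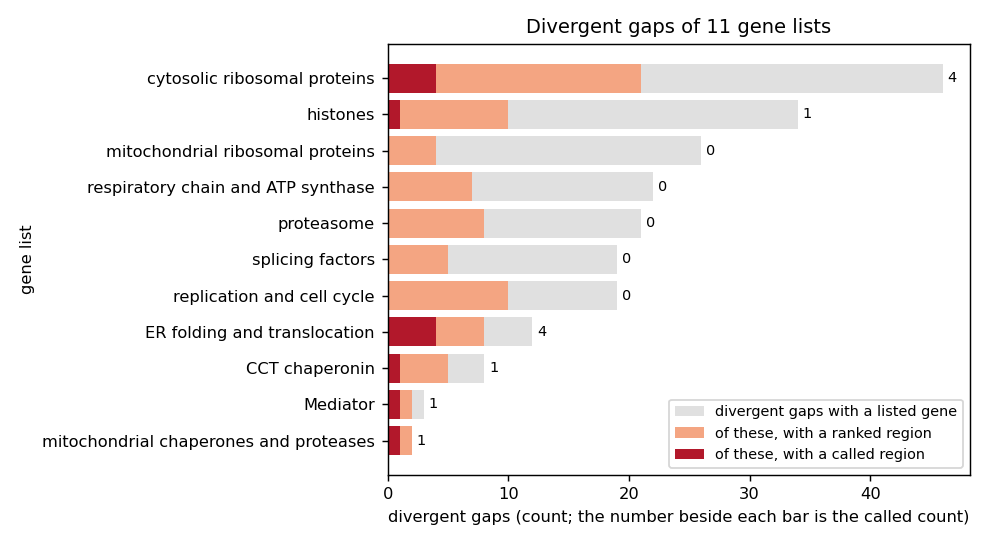
Divergent gaps with a gene of each of 11 lists (full bar), those with a ranked region and those with a called region, as counts, with the called count beside each bar. ER folding and translocation and cytosolic ribosomal proteins each had 4 called gaps, out of 12 and 46.

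Some strong members fell outside the conservative list. In another of the thresholded lists but not in that one were 6: E04F6.6/pcrg-1 (70.0), cux-7/C07H6.2 (64.4), the alpha tubulin gene tba-1 with cox-5B (56.7), egrh-2/lep-2 (56.6), F40F11.3/mig-38 (54.3) and tim-1/Y75B8A.23 (51.7). None of the 6 had CCAAT within 100 bp of the summit. Among those with both replicate values, the cux-7 gap had the widest ratio, with 49.7 in replicate 1 and 19.6 in replicate 2.

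The 5 members with the highest signal outside all 4 thresholded lists were larp-1/wip-1 (62.9), nasp-2/C50B6.3 (61.4), ifet-1/rps-1 (58.9), nmat-2/rab-5 (57.1) and lgl-1/F56F10.1 (55.2). The first 3 exceeded the lowest called signal of 57.4, so the list and the signal did not order the members identically. A region was missing from replicate 1 at nasp-2/C50B6.3 and from replicate 2 at ifet-1/rps-1. Of these 5, nmat-2/rab-5 had plain CCAAT 1 bp from the summit and lgl-1/F56F10.1 the extended word 93 bp away.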

How the data were processed

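The authors deposited peak lists, not reads: ranked and thresholded lists for each replicate and for the series, on ce11 per the labels. Each region carries a signal, the authors' peak caller value, and the ranked lists carry −log10 of the irreproducible discovery rate, as deposited. Neither the aligner nor the peak caller is named, and their versions are likewise not given in the sources used here. Depth is unknown. Each series list has 2 columns of replicate values with no sample named; they were not used, and replicate signals were read from each replicate's own list by overlap, taking the highest. Genes were those of Ensembl release 115 and sequences those of WBcel235, read with Python 3.11.15, numpy 2.4.6 and pandas 2.3.3; figures used matplotlib 3.10.9. Gene roles follow RefSeq products or textbook knowledge. Gap finding, summit placement and word search were tested on simulated data.

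The 2 libraries form 1 group, and regions are not replicates, so shares, medians and Wilson intervals are given without p-values. The labels say biological replicates. Members, gene lists and the naming rule were chosen with earlier results of these data known. Named are the 15 called members with the highest signal, all called members with the extended word or a listed gene, the 5 highest outside all thresholded lists, and members of small counts; other called members were named for their position or signal after their values were seen.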

Additional observations from a re-analysis of the deposited data

How the results depend on the processing

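The divergent share of called regions and of gaps with a called summit was above that of single-gene gaps under every alternative run. Convergent gaps, with 2.26% of regions called beside 2.24% in divergent gaps in the main run, were not included in the alternatives. Only their shares in the pooled and replicate lists are given above. The intervals of divergent and single-gene gaps overlapped in some runs. With gaps of at most 1000 bp, 2.02 to 4.96% of divergent-gap regions stood against 1.23 to 2.52% of single-gene-gap regions. Per gap this was 0.664 to 1.65% against 0.335 to 0.708%. With the conservative peaks above their median signal, the region intervals were 1.00 to 2.37% in divergent and 0.517 to 1.12% in single-gene gaps. The divergent CCAAT share was below the single-gene share except in 50 bp windows, and the extended word's share was above it in all. Of 109 alternative values, 66 stayed within the main interval or the replicate spread and 43 moved.

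With gaps of at most 1000 bp, divergent gaps held 0.792% of ranked regions, 29.5% of members had CCAAT, 35.6% of summits lay in the central part of the gap, the nearer start was 140 bp away, and 1.76% of single-gene-gap regions were called. Without gaps that hold a non-coding start, the share of members was 1.52% and the nearer start 205.5 bp away. The other ranked list gave called shares of 1.30% in divergent and 0.645% in single-gene gaps, median signals of 18.7 in divergent and 18.6 in single-gene gaps, and a distance of 232 bp to the nearer start. With 1 region per gap the median signal was 25.03 in divergent and 24.5 in single-gene gaps, and the distance 205 bp.

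To leave out a replicate, the thresholded list of the other one took the place of the conservative list. This repeated the called shares of the replicate lists reported above, 0.927 to 1.39% in divergent and 0.244 to 0.366% in single-gene gaps. Signals and distances then came from the ranked list of the other replicate. Gaps with a called summit were 0.481 to 0.722% of divergent and 0.0960 to 0.165% of single-gene gaps, the median signal was 13.9 to 16.1 in divergent and 14.0 to 15.3 in single-gene gaps, and the distance was 217 to 220 bp. Replicate 1 alone gave the higher median to single-gene gaps. With the conservative peaks above their median signal, 1.54% of divergent-gap and 0.762% of single-gene-gap regions were called, in 0.802% of divergent and 0.316% of single-gene gaps. Counting summits within 1000 bp upstream of 1 coding start as single-gene gave 0.621% called, 36.1% with CCAAT and 2.29% with the extended word.

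Windows of 50 bp on each side gave CCAAT shares of 19.5% in divergent and 19.3% in single-gene gaps, and extended shares of 1.31% in divergent and 0.945% in single-gene gaps. Windows of 150 bp gave CCAAT shares of 45.6% in divergent and 46.6% in single-gene gaps, and extended shares of 3.47% in divergent and 2.62% in single-gene gaps. Leaving out repeated sequence, an alternative chosen after seeing the data, moved no value beyond its interval. No paired analysis was possible because the 2 libraries are 1 group. Depth is unknown, so a region absent from a list may be one not detectable at this depth. Counts of 20 to 36 called regions per kind of gap leave wide intervals, and no untagged control was analysed here.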

Other observations

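The printed summit sequences share words other than CCAAT, which were picked by eye from them and then counted on both strands within 100 bp of every summit. Because they were picked from called divergent-gap regions, their share there is a description and no test was made. GACGCAG was present in 9 of 29 called members (31.0%, 95% Wilson interval 17.3 to 49.2%), against 62 of 1266 other members (4.90%), 3 of 36 called regions of single-gene gaps (8.33%), 0 of 20 in convergent gaps (upper bound 16.1%) and 2.22% of all regions not called. The 9 were hsp-3/C15H9.5, sec-61.G/F32D8.7, F44E5.4/F44E5.5, drr-2/set-16, ntl-11/Y73F8A.27, W03C9.5/mex-1, npp-3/top-2, R107.5/cls-2 and cup-14/ndub-8, and 5 of them also had CCAAT. Of the 29 called members, 13 had neither word.

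ACACTC was found in 6 of 29 called members (20.7%, 9.85 to 38.4%), against 9.79% of other members, 8.33% of called regions in single-gene gaps and 4 of 20 in convergent gaps. Of the 6, 3 lay beside ribosomal protein genes, rpl-20, rpl-15 and rps-23, with the word 6 to 17 bp from the summit, and K01G5.10/tasp-1 had 3 copies. CGCGC was present in 17 of 29 called members (58.6%), 18.4% of other members, 41.7% of called regions in single-gene gaps and 9.02% of all regions not called, where GC content also differs.

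TTCTAGAA, which contains 2 inverted units of the heat shock element, was in the windows of the Hsp70 pair F44E5.4/F44E5.5, 7 bp from the summit, and of R107.5/cls-2, 27 bp from it. Those were 2 of 29 called members (6.90%, 1.91 to 22.0%), against 1.58% of other members, 4.51% of all called regions and 1.12% of all regions not called.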
